A study of Homo sapiens with 6 samples.

Results

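The collagen, laminin and integrin genes were taken by symbol: COL followed by a chain number, LAMA, LAMB and LAMC chains, ITGA subunits, and ITGB1 to ITGB8. The rule used no measured value and found 82 genes among the 58825 in the data, which were 44 collagens, 12 laminins, 18 integrin alpha and 8 integrin beta subunits. Their mRNA was measured by RNA-seq in NCI-H460, a human line from a large cell carcinoma of the lung that the labels call adenocarcinoma. All cells were infected with lentivirus, and the methods describe puromycin selection of the stable PRMT5 knockdown cells. NC-shRNA cells (3 libraries) carried a control hairpin, which the labels describe as directed against GFP, and PRMT5-shRNA cells (3 libraries) a hairpin against PRMT5, an arginine methyltransferase of histones and splicing proteins. The labels do not say which of the designed PRMT5 hairpins was sequenced, so what the knockdown does and what that hairpin does cannot be told apart. The study calls the libraries biological replicates. The question put to the members was whether their mRNA differed between PRMT5-shRNA and NC-shRNA cells, chain by chain.

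Epithelial cells rest on a basement membrane, a sheet of type IV collagen and laminin that the cells secrete and bind. Laminins are heterotrimers of an alpha, a beta and a gamma chain, and type IV collagen molecules are trimers drawn from 6 chains whose genes lie in head-to-head pairs. Fibril-forming collagens give tissues tensile strength, and fibril-associated and beaded-filament collagens link fibrils to each other and to cells. Integrins are the receptors: an alpha and a beta subunit form a heterodimer, the alpha subunit sets much of the ligand choice, and the beta tail connects to the actin cytoskeleton.

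Total counts per library ranged from 53531257 to 70518401, and genes with exactly 4 counts outnumbered those with 3 or 5 in every library, so a count is not 1 fragment. PRMT5, the target, had a mean of 133 ± 8.90 CPM (counts scaled to a common library size with TMM; SD, n = 3) in NC-shRNA and 43.2 ± 4.28 CPM (SD, n = 3) in PRMT5-shRNA cells. This is a log2 fold change of -1.62 (SE 0.0943, adjusted p = 0.0063, quasi-likelihood test of edgeR, adjusted over all genes tested by the Benjamini-Hochberg method). Keratin mRNAs were abundant, and the summed level of 10 epithelial markers was 1802 to 1955 CPM in NC-shRNA and 1572 to 1700 CPM in PRMT5-shRNA cells. Of the 10, 2 were higher, against 51.2% of all genes tested. By the chi-square per degree of freedom of their counts, NC-shRNA replicate 3 lay closest to PRMT5-shRNA replicate 1 (42.2), and NC-shRNA replicate 1 stood farthest from the rest (60.6 to 107.8).

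The 3 type IV collagen gene pairs are transcribed away from each other, from start sites that lie close together. RefSeq windows on GRCh38.p14, from 250 bases before to 50 after the annotated start, were found for 58 of the 82 members. The windows of COL4A1 and COL4A2 shared 226 bases, with start sites 127 bases apart. Those of COL4A5 and COL4A6 shared 121 bases, with start sites 380 apart, and those of COL4A3 and COL4A4 shared 82 bases, with start sites 419 apart. A second annotated COL4A6 window (chrX:108438373-108438672, minus strand) did not overlap the COL4A5 window. Below are the COL4A2 window (chr13:110307034-110307333, plus strand), which holds most of the COL4A1 window on the opposite strand, and the windows of COL4A3 (chr2:227164374-227164673, plus strand) and COL4A4 (chr2:227164156-227164455, minus strand). They are shown because COL4A1 and COL4A2 were both higher in PRMT5-shRNA cells at an unadjusted p under 0.05, whereas of COL4A3 and COL4A4 this held for COL4A4 alone. The windows of COL6A3 (chr2:237414115-237414414, minus strand) and COL9A2 (chr1:40317237-40317536, minus strand) belong to members that passed the looser threshold below in opposite directions. Capitals mark a CCAAT box (CCAAT or ATTGG) or a GC box (GGGCGG or CCGCCC), searched on both strands.
COL4A2: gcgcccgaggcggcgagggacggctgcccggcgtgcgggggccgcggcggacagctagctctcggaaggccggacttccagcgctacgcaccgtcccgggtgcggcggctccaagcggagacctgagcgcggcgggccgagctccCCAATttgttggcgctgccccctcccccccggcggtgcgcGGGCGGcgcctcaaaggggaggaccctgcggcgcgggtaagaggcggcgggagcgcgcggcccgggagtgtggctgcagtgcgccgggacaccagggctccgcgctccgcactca
COL4A3: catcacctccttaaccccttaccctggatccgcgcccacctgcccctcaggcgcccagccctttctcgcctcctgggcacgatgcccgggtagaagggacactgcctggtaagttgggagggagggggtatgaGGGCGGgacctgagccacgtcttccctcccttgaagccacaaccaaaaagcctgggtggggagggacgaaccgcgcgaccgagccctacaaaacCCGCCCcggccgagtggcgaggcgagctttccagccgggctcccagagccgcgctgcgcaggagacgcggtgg
COL4A4: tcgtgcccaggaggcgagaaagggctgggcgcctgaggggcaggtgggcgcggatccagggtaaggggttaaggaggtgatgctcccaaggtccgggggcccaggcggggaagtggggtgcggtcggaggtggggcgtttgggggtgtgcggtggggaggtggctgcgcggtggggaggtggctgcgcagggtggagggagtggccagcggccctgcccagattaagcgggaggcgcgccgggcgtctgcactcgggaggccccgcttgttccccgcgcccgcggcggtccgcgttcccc
COL6A3: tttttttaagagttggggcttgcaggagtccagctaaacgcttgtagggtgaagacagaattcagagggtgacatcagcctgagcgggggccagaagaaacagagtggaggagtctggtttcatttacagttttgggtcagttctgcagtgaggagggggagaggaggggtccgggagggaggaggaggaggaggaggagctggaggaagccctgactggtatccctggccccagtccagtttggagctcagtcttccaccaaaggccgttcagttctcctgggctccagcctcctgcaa
COL9A2: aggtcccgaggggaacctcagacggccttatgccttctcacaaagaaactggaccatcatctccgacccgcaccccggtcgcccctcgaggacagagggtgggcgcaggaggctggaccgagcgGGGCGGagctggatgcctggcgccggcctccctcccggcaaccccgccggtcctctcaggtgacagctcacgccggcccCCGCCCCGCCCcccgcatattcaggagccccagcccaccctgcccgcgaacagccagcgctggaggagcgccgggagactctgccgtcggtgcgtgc

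A GC box was present in 32 of the 58 member windows (55.2%), against 44.6% of 27305 windows of all genes with the same length. In COL9A2 the last pair of GC boxes overlap. A CCAAT box was present in 14 member windows (24.1%) against 35.7% of all, and the TATA box core (TATAAA or TTTATA) in 6 (10.3%) against 11.95%. None of the 5 windows shown held the TATA box core, and those of COL4A4 and COL6A3 held none of these motifs. The median GC content was 64.8% in member windows and 58.3% in all windows. These are matches of letters, and no binding was measured.

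Among the collagens the fibrillar chain COL5A2 stood far above the others. Levels are compared between genes as FPKM, the deposited per-length scale, and COL5A2 averaged 143 FPKM over the 6 libraries, or 47.0% of the summed FPKM of all 44 collagens. Next came COL15A1 (a basement-membrane-associated collagen) at 23.0 FPKM, COL4A6 at 22.7 FPKM, COL7A1 (the anchoring fibril collagen) at 20.2 FPKM and COL4A5 at 13.5 FPKM. The type I collagen chains, the main collagen of fibroblasts, were at 1.11 FPKM for COL1A1, and COL1A2 was at 0 counts in all 6 libraries. COL5A2 was 11.9 to 13.6 times as abundant per length as COL5A1, its partner in type V collagen, in each of the 6 libraries.

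Among the laminins LAMC1 was highest. LAMC1, the gamma chain of most laminins, averaged 89.1 FPKM, which was 52.6% of the laminin total. LAMB1 averaged 24.8 FPKM, LAMB3 20.6 FPKM and LAMA5 15.4 FPKM. Among chains of laminin-332, the laminin of epidermal anchoring, LAMB3 was 22.3 times as abundant per length as LAMA3 (0.928 FPKM), averaged over libraries.

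ITGB1, the beta subunit shared by most matrix-binding integrins, averaged 90.4 FPKM and made up 75.2% of the integrin beta total. It exceeded the sum of its alpha partners by 1.39 to 1.99 times, depending on the library. Among alpha subunits ITGA5, the fibronectin receptor subunit, was at 20.2 FPKM, the laminin-binding ITGA6 at 10.97 FPKM, the RGD-binding ITGAV at 8.70 FPKM and the laminin-binding ITGA3 at 5.93 FPKM. ITGB5, a partner of ITGAV, was at 21.4 FPKM and ITGB4, the partner of ITGA6 in hemidesmosomes, at 5.67 FPKM. At least 1 FPKM on average was reached by 18 collagens, 7 laminins, 8 integrin alpha and 4 integrin beta genes.

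**Figure D1:**
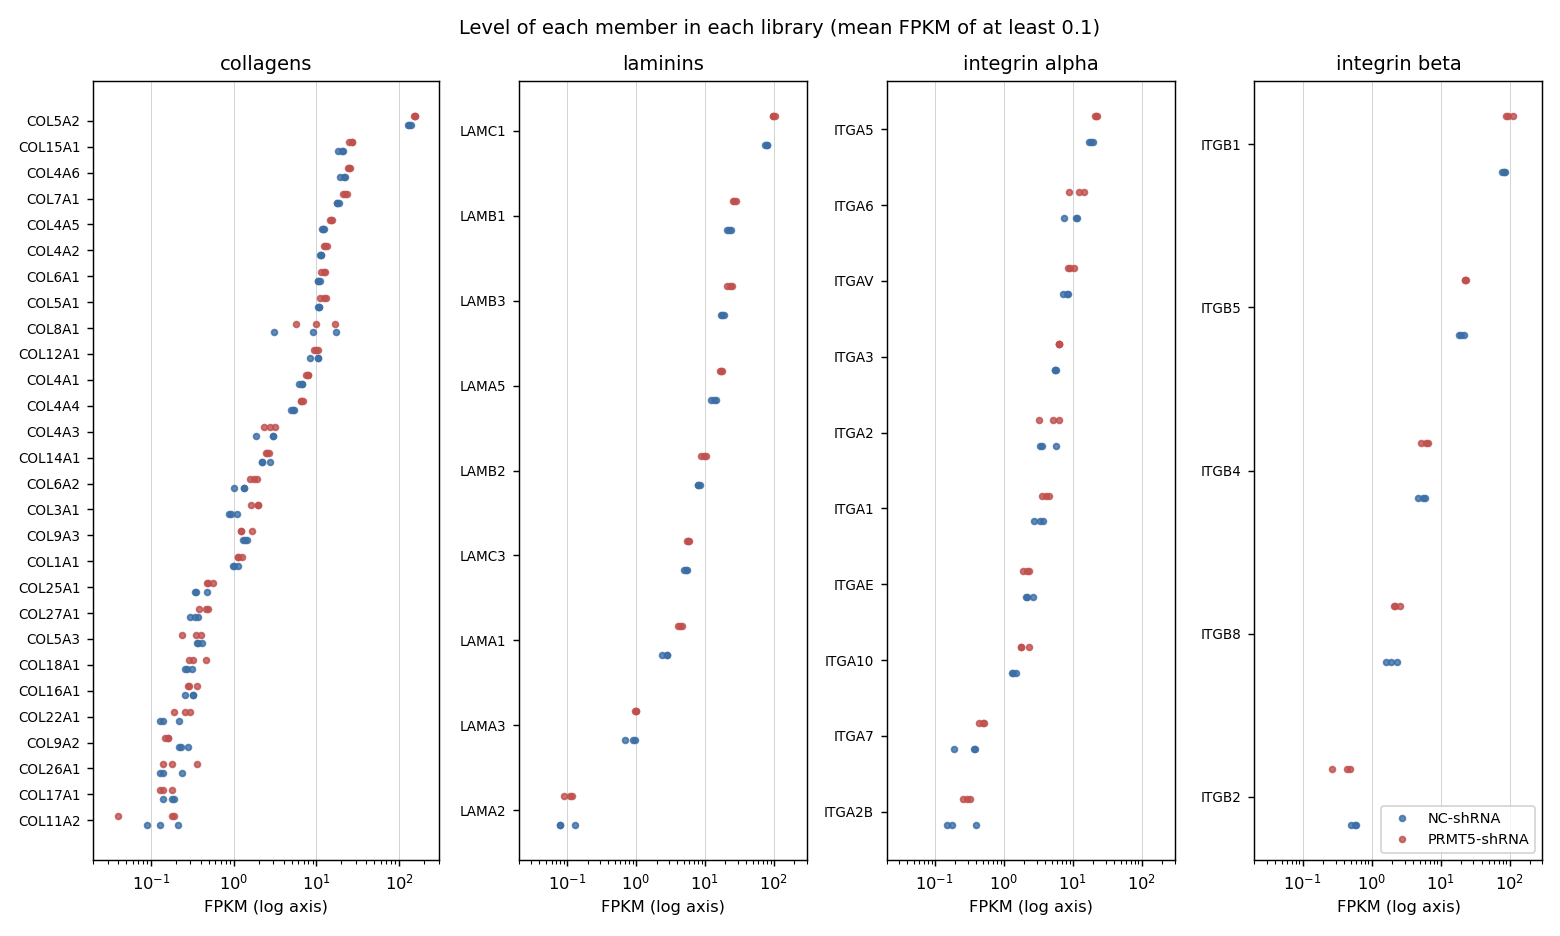
FPKM of each member with a mean of at least 0.1 FPKM (log axis), 1 point per library, by family. COL5A2, LAMC1 and ITGB1 stand at the top of their families at 143, 89.1 and 90.4 FPKM on average.

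The summed FPKM of each family was higher in PRMT5-shRNA cells. Collagens summed to 261, 281 and 297 FPKM in the NC-shRNA and 323, 329 and 331 FPKM in the PRMT5-shRNA libraries, a ratio of means of 1.17. For laminins the sums were 143, 152 and 156 FPKM against 193, 183 and 189 FPKM, a ratio of 1.26. The ratio was 1.18 for integrin alpha and also 1.18 for integrin beta subunits. The groups did not overlap for collagens, laminins and integrin beta subunits, and overlapped for integrin alpha subunits. In a bulk sample, fewer cells of a type and less RNA per cell cannot be told apart. FPKM as deposited is not scaled by TMM, and the median of all genes on log2(FPKM + 0.1) was 0.050 higher in PRMT5-shRNA cells.

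Tested gene by gene, the members differed by small amounts that leaned to the PRMT5-shRNA side. Of the 82 members, 62 passed the filter on low counts (33 collagens, 10 laminins, 12 integrin alpha and 7 integrin beta subunits). At an adjusted p under 0.05 in edgeR, 0 members were higher and 0 lower, where 0.0493% of the 20295 genes tested were called higher and 0.0197% lower. At an unadjusted p under 0.05, 20 members (32.3%) were higher, against 6.54% of all genes, and 1 was lower, against 6.29%. DESeq2, an alternative count test, called 9 members higher at an adjusted p under 0.05, against 1.49% of all genes, and 0 lower, against 1.12%. The 9 were COL15A1, COL3A1, COL4A4, COL4A5, COL6A3, LAMA1, LAMA5, LAMB3 and LAMC1. limma on log2 FPKM called 0 members in all 3 settings tried.

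In sign, 49 of the 62 members were higher in PRMT5-shRNA cells, against 51.2% of all genes, and 13 were lower, against 48.8%. The 49 include COL8A2 and ITGB3, which passed the filter only through the PRMT5-shRNA group, where they are high, so their sign supports nothing. The median log2 fold change was 0.19 over the members and 0.0075 over all genes tested. Among genes with a mean of at least 10 CPM, 34 of 36 members were higher, against 46.1% of 9963 genes, and the median was 0.18 over these members and -0.017 over these genes. The 3 PRMT5-shRNA libraries all lay above the 3 NC-shRNA libraries in CPM for 23 members, against 11.0% of all genes, and all below for 2, COL9A2 and ITGB2, against 10.7%. An exact two-sided permutation test of such a member gives p = 0.10, the smallest possible with 3 against 3 libraries. At an unadjusted p under 0.05 with a fold change over 1.5, 4 members were higher, COL3A1, COL6A3 and LAMA1 among them, against 2.53% of all genes, and 1 was lower (COL9A2), against 1.29%.

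**Figure D2:**
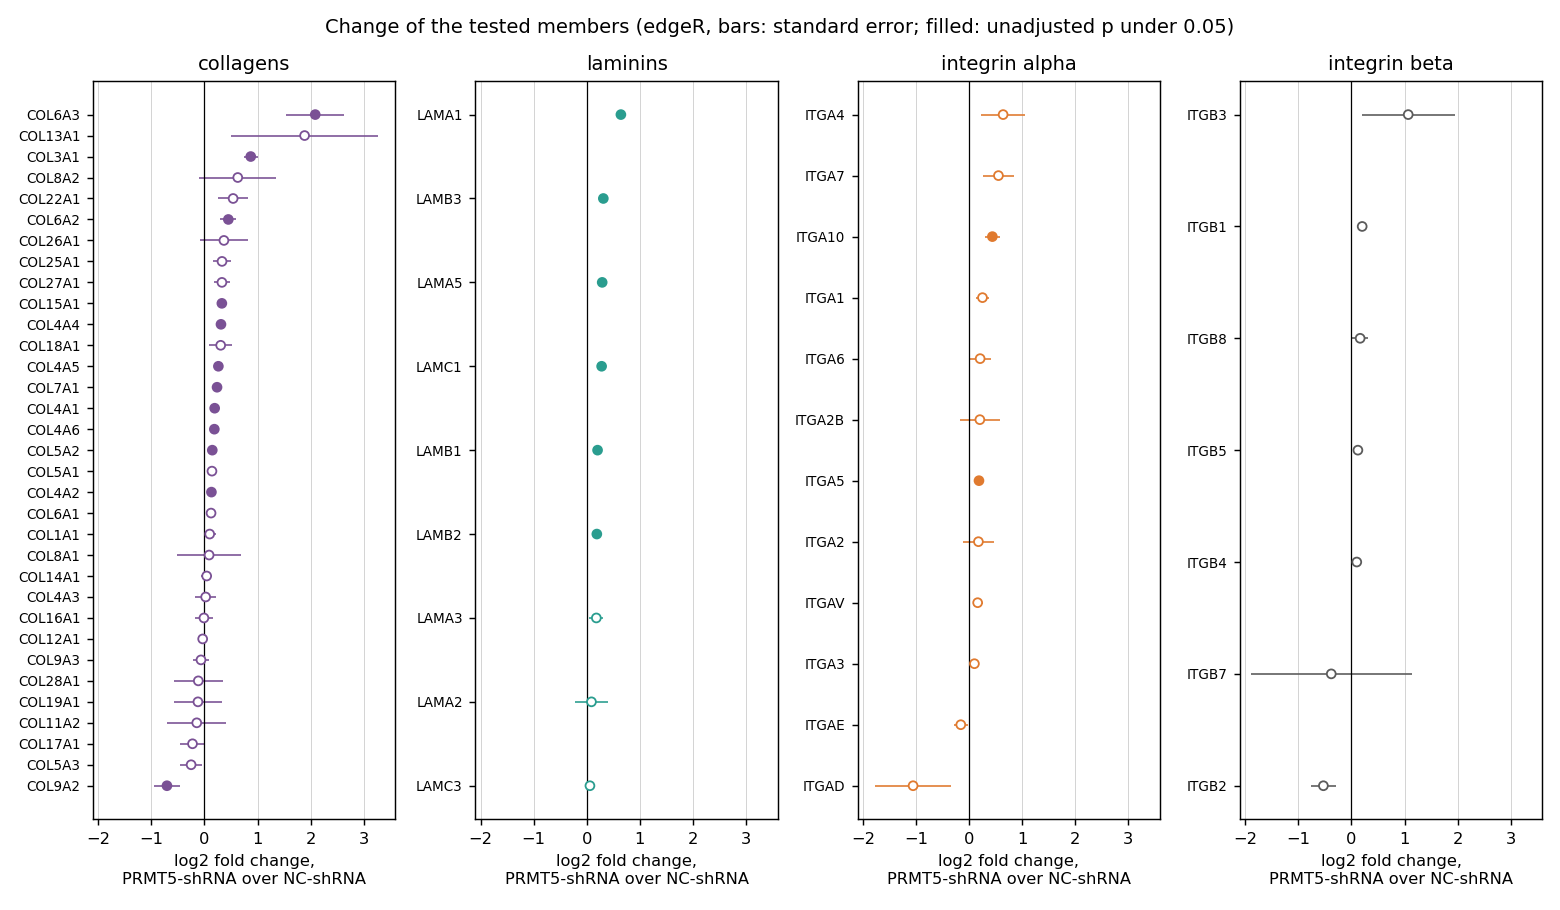
Log2 fold change of PRMT5-shRNA over NC-shRNA with its standard error for the members tested and reported here, by family, from edgeR. Filled points have an unadjusted p under 0.05, and of these COL9A2 alone lies to the left of 0.

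All 10 laminin chains tested had higher values in PRMT5-shRNA cells, where 51.2% of all genes, 60.8% of genes with transcripts of 6000 to 8000 bases and 69.9% of longer genes did. The median transcript of these chains was 7011 bases. At an unadjusted p under 0.05 there were 7, against 6.54% of all genes, and the median was 0.24 on the log2 scale. LAMC3 and LAMA2, named after their values were seen, had log2 fold changes of 0.059 (SE 0.0692) and 0.087 (SE 0.305), with overlapping groups. With the length correction LAMC3 was at 0.0033 and LAMA2 turned to -0.029. LAMA1 (chr18:6941744-7117814 of GRCh38, minus strand), the alpha chain of laminin-111, the laminin of early embryos, had 47.0, 53.7 and 51.8 CPM in the NC-shRNA and 84.3, 79.1 and 74.5 CPM in the PRMT5-shRNA libraries. The groups did not overlap. The log2 fold change was 0.64 (SE 0.0799, adjusted p = 0.090 in edgeR), the smallest p among the members. LAMC1 had 779, 805 and 795 CPM against 993, 951 and 944 CPM. These groups too were apart, with a log2 fold change of 0.28 (SE 0.0467, adjusted p = 0.14 in edgeR).

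The other laminin-511 chains lay on the same side. LAMA5 was at 215, 235 and 242 CPM against 288, 287 and 271 CPM, a log2 fold change of 0.29 (SE 0.0629, adjusted p = 0.20 in edgeR). LAMB1 was at 205, 217 and 230 CPM against 248, 241 and 261 CPM, a log2 fold change of 0.20 (SE 0.0636, adjusted p = 0.29 in edgeR). In both genes the groups were apart. LAMA5 overlaps ADRM1 and LAMB1 overlaps DLD on the other strand, and the strand setting of the counting is not given in the sources used here.

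Of the laminin-332 chains, LAMB3 was at 99.0, 97.2 and 102 CPM against 125, 113 and 133 CPM, a log2 fold change of 0.31 (SE 0.0739, adjusted p = 0.21 in edgeR). Its groups were apart. LAMA3 had a log2 fold change of 0.18 (SE 0.130) with overlapping groups. LAMB2, a beta chain of basement membranes at nerve and muscle, had a log2 fold change of 0.19 (SE 0.0742) with groups apart.

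The 6 type IV collagen genes were all on the higher side, and 5 had an unadjusted p under 0.05, against the same 51.2% and 6.54% of all genes. Their median was 0.19 on the log2 scale, at a median transcript of 6683 bases. COL4A4 was at 60.4, 61.9 and 62.7 CPM in the NC-shRNA and 74.3, 75.3 and 79.9 CPM in the PRMT5-shRNA libraries. Its groups were apart, with a log2 fold change of 0.31 (SE 0.0602, adjusted p = 0.18 in edgeR). COL4A3, its head-to-head neighbour, was at 20.7, 32.5 and 31.7 CPM against 28.9, 33.3 and 24.04 CPM. The COL4A3 groups overlapped, the log2 fold change was 0.022 (SE 0.199), and its sign turned with the length correction and with single libraries left out. COL4A5 and COL4A6 moved by 0.26 (SE 0.0536, adjusted p = 0.18 in edgeR) and 0.19 (SE 0.062, adjusted p = 0.31 in edgeR) on the log2 scale.

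The COL4A1 and COL4A2 pair, which forms the ubiquitous type IV collagen, also lay on this side. COL4A1 was at 112, 116 and 114 CPM against 133, 132 and 125 CPM, a log2 fold change of 0.19 (SE 0.0548, adjusted p = 0.27 in edgeR). COL4A2 was at 265, 256 and 254 CPM against 293, 281 and 274 CPM, a log2 fold change of 0.13 (SE 0.052, adjusted p = 0.37 in edgeR). Both pairs of groups were apart. The genes overlap on opposite strands at their starts (COL4A1 at chr13:110148963-110307233, COL4A2 at chr13:110305812-110513209), so reads there could have been divided between them. Per length, COL4A2 was 1.62 to 1.80 times as abundant as COL4A1 in the 6 libraries, and COL4A6 1.56 to 1.904 times as abundant as COL4A5.

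Outside type IV, COL15A1 was at 149, 163 and 162 CPM against 189, 205 and 202 CPM, a log2 fold change of 0.33 (SE 0.0637, adjusted p = 0.18 in edgeR). COL7A1 was at 241, 237 and 242 CPM against 269, 299 and 280 CPM, a log2 fold change of 0.24 (SE 0.0572, adjusted p = 0.22 in edgeR). The groups were apart in both genes. COL17A1, the hemidesmosomal collagen, named here after its values were seen, had a log2 fold change of -0.23 (SE 0.243), with overlapping groups. COL8A1, a short-chain collagen named here after its values were seen, differed more between libraries of a group than between groups. It was at 35.3, 101 and 192 CPM against 61.9, 108 and 179 CPM, and was the only member of 35 with a mean of at least 10 CPM in NC-shRNA cells whose libraries spanned over 2-fold within a group. Its log2 fold change was 0.087 (SE 0.609), with overlapping groups. It ran from -0.36 to 0.77 as each library was left out, and was 0.26 (SE 0.189) with a replicate block.

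Among fibril-forming collagens, COL3A1 (chr2:188974320-189012746, plus strand), the type III collagen of elastic tissues, had the smallest p. It had 501, 531 and 542 counts in the NC-shRNA and 845, 889 and 889 in the PRMT5-shRNA libraries, or 7.46, 7.66 and 8.72 CPM against 15.5, 12.7 and 15.5 CPM. Every PRMT5-shRNA value exceeded every NC-shRNA value. The log2 fold change was 0.87 (SE 0.130, adjusted p = 0.11 in edgeR), and over the alternative fits the adjusted p ranged from 5.7e-06 in DESeq2 to 0.37 with a replicate block. COL5A2, its neighbour on the other strand with no overlap (chr2:189031896-189225312), had a log2 fold change of 0.15 (SE 0.0432, adjusted p = 0.27 in edgeR) with groups apart. COL1A1 had a log2 fold change of 0.10 (SE 0.113), with overlapping groups.

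The microfibril-forming type VI chains were 3 of 3 higher, against 51.2% of all genes, at unequal sizes and levels. COL6A3 (chr2:237324003-237414375, minus strand) was sparse in NC-shRNA cells, with 14, 80 and 31 counts, and had 148, 167 and 164 counts in PRMT5-shRNA cells. The NC-shRNA libraries varied several-fold among themselves, and all lay below the PRMT5-shRNA libraries. The log2 fold change was 2.09 (SE 0.549, adjusted p = 0.24 in edgeR), and it ranged from 1.67 to 2.90 as each library was left out. COL6A2 had a log2 fold change of 0.45 (SE 0.148, adjusted p = 0.30 in edgeR) with groups apart. COL6A1, at 68.5, 66.1 and 69.7 CPM against 74.5, 78.9 and 69.1 CPM, had a log2 fold change of 0.12 (SE 0.0701), with overlapping groups.

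Of 7 fibril-associated collagens 2 were higher and 5 lower, against 51.2% and 48.8% of all genes, and the median log2 fold change was -0.034. COL9A2 (chr1:40300487-40317813, minus strand), a chain of the cartilage collagen IX, had 96, 77 and 72 counts in the NC-shRNA and 42, 51 and 44 counts in the PRMT5-shRNA libraries. All PRMT5-shRNA values were below all NC-shRNA values. Its log2 fold change was -0.71 (SE 0.238, adjusted p = 0.31 in edgeR), and its unadjusted p ranged from 0.030 to 0.067 as each library was left out. COL12A1, at 127, 155 and 152 CPM against 148, 135 and 142 CPM, differed by -0.034 on the log2 scale (SE 0.088), with overlapping groups and values of -0.12 to 0.018 as each library was left out.

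**Figure D3:**
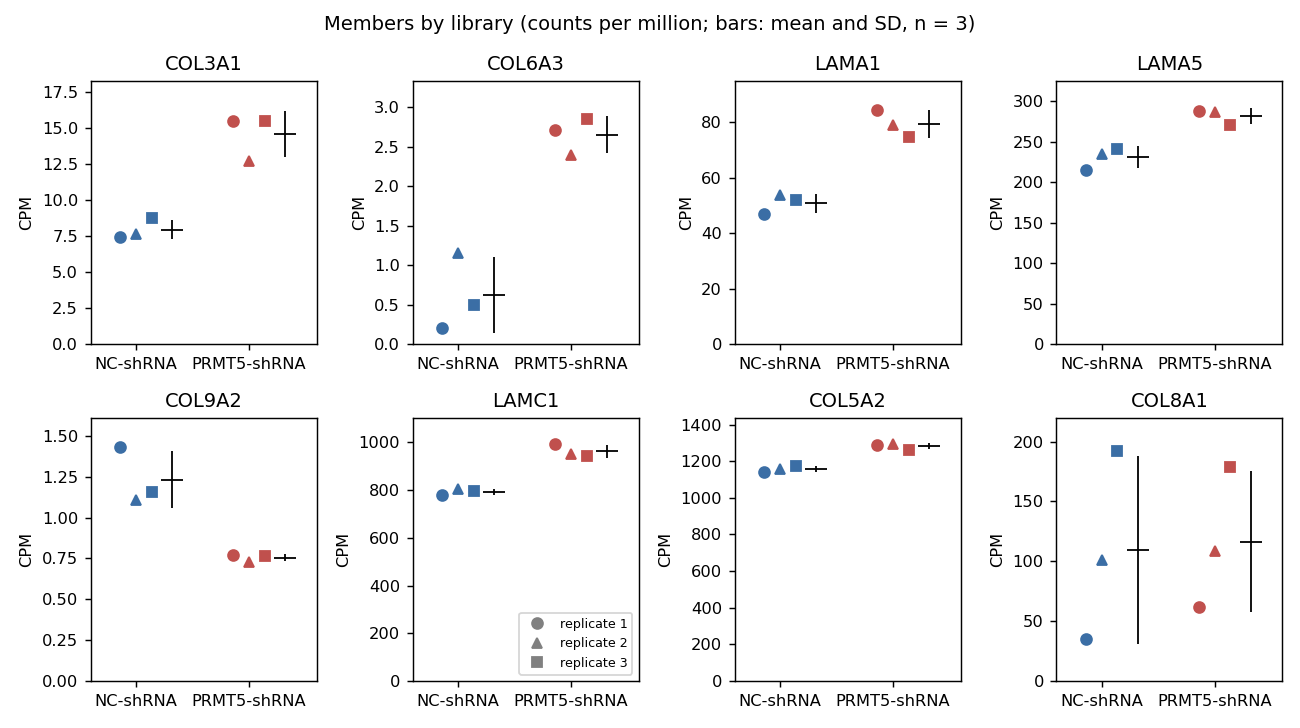
CPM of 8 members by library, with the mean and SD of each group (n = 3) beside the points and marker shapes for replicate numbers. COL3A1, COL6A3, LAMA1, LAMA5, LAMC1 and COL5A2 have their PRMT5-shRNA libraries above and COL9A2 below all NC-shRNA libraries, while COL8A1 spans 35.3 to 192 CPM within the NC-shRNA group.

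Among the receptors, 10 of 12 integrin alpha subunits were higher, against 51.2% of all genes. There were 2 at an unadjusted p under 0.05, and with the beta subunits 2 of 19, which is near the 6.54% of all genes. ITGA5 was at 156, 173 and 160 CPM in the NC-shRNA and 186, 181 and 189 CPM in the PRMT5-shRNA libraries. Its groups were apart, with a log2 fold change of 0.19 (SE 0.0599, adjusted p = 0.30 in edgeR). ITGA10, a collagen receptor subunit of cartilage, was at 11.4, 10.2 and 9.56 CPM against 12.8, 12.95 and 16.4 CPM. Its groups were apart too, with a log2 fold change of 0.44 (SE 0.141, adjusted p = 0.30 in edgeR).

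Of the other abundant alpha subunits, ITGA6 was at 60.9, 91.1 and 86.9 CPM against 95.6, 68.7 and 112 CPM, a log2 fold change of 0.21 (SE 0.212) with overlapping groups. It was 0.046 without NC-shRNA replicate 1, 0.044 without PRMT5-shRNA replicate 3 and 0.38 without PRMT5-shRNA replicate 2. ITGA3 was at 66.4, 64.7 and 65.8 CPM against 70.0, 70.6 and 70.3 CPM, where the groups were apart at a log2 fold change of 0.10 (SE 0.0545, adjusted p = 0.49 in edgeR). ITGAV, a vitronectin and TGF-beta-activating subunit, had a log2 fold change of 0.16 (SE 0.0922), with overlapping groups.

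Of 7 integrin beta subunits 5 were higher, against 51.2% of all genes, and no p was under 0.05. ITGB3, among the 5, passed the filter only through the PRMT5-shRNA group, where it is high, so its sign supports nothing. ITGB1 was at 571, 594 and 604 CPM against 621, 773 and 641 CPM, with the second PRMT5-shRNA library highest. Its groups were apart, with a log2 fold change of 0.20 (SE 0.0891, adjusted p = 0.41 in edgeR) that was 0.097 without that library. ITGB5 and ITGB4 differed by 0.12 (SE 0.0795) and 0.10 (SE 0.108) on the log2 scale, with overlapping groups. As each library was left out, ITGB5 ran from 0.048 to 0.19 and ITGB4 from 0.024 to 0.18. ITGB2, the leukocyte beta subunit, was at 5.005, 4.08 and 4.62 CPM against 2.18, 3.50 and 3.81 CPM, a log2 fold change of -0.53 (SE 0.232, adjusted p = 0.40 in edgeR). Of the leukocyte alpha subunits, ITGAE had a log2 fold change of -0.16 (SE 0.130) with overlapping groups. ITGAD, with 35, 28 and 12 counts against 16, 4 and 11, passed the filter only through the NC-shRNA group, where it is high, so its lower sign supports nothing.

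Transcript length moved with the fold change over all genes, and the members are long. The median longest transcript was 5842.5 bases for the members tested and 2902 bases for all genes tested. Over all genes the median log2 fold change was -0.051 for transcripts up to 2000 bases and 0.11 for those over 8000 bases. Members lay above the median of their length bin in each bin that held any: 0.20 against -0.0062 from 2000 to 4000 bases (11 members), 0.19 against 0.035 from 4000 to 6000 (21 members), 0.16 against 0.056 from 6000 to 8000 (17 members), and 0.24 against 0.11 above 8000 (13 members). In the order of these bins, 6, 17, 14 and 12 members were higher, against 49.0%, 55.9%, 60.8% and 69.9% of all genes in the bin. These counts include COL8A2 and ITGB3, whose sign supports nothing. Across genes, which are not replicates, Spearman's rho of fold change with length was 0.14 over 20221 genes and 0.065 over the 62 members.

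With a length correction, an offset per library fitted to length, the members' median was 0.12 and that of all genes -0.0055. Then 46 members were higher, against 49.3% of all genes, and 16 lower, against 50.7%. At an unadjusted p under 0.05, 14 members were higher, against 5.72%, and 3 were lower (COL12A1, COL9A2 and ITGB2), against 7.49%. By family the corrected median was 0.10 for collagens, 0.16 for laminins, 0.15 for integrin alpha and 0.063 for integrin beta subunits. At this p, laminins had 6 chains higher and type IV collagens 2 (COL4A4 and COL4A5). LAMA1 had a corrected log2 fold change of 0.54, below the 1.5-fold line, and COL3A1 one of 0.83. What else varies with length between the libraries was not tested.

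**Figure D4:**
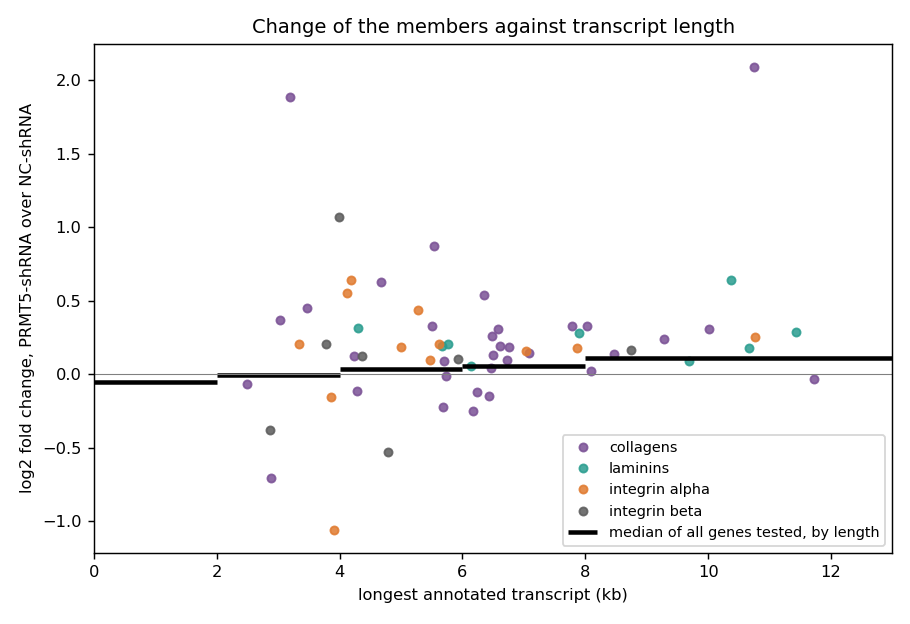
Log2 fold change of the members tested and reported here against the length of its longest annotated transcript, coloured by family, with black lines for the median of all genes tested in each length bin. The black lines run from -0.051 for the shortest to 0.11 for the longest transcripts, and the members' own median lies above the line in each bin that holds members.

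The remaining 20 members were below the filter, with at most 36 counts in any library. Among them COL1A2, COL6A5, COL9A1, ITGA8 and ITGAL were at 0 in all 6 libraries. LAMA4, the alpha chain of endothelial and mesenchymal laminins, was at 0 in the 3 NC-shRNA libraries and at 8, 22 and 36 counts in the PRMT5-shRNA libraries. Of the 62 members tested, 57 had every library over the filter, and COL13A1, COL8A2, ITGAD, ITGB3 and ITGB7 did not. COL8A2 and ITGB3 passed only through the PRMT5-shRNA group, so their higher sign supports nothing, with or without the length correction.

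Of 30 tested genes of collagen assembly, which fold, trim and crosslink the chains, 16 were higher, near the 51.2% of all genes. The median over them was 0.015 on the log2 scale. There were 4 higher and 3 lower at an unadjusted p under 0.05, against 6.54% and 6.29% of all genes. Of these, up to 3 in each direction, taken by the smallest p, are given as single values. The procollagen N-propeptidases ADAMTS2 and ADAMTS3 were lower by log2 fold changes of -0.94 (SE 0.211, adjusted p = 0.20 in edgeR) and -0.65 (SE 0.209, adjusted p = 0.30 in edgeR). PPIB, a proline isomerase of the endoplasmic reticulum, differed by -0.25. The crosslinking enzyme LOXL2 and the prolyl 3-hydroxylases P3H1 and P3H2 differed by 0.20, 0.19 and 0.16.

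Of 37 other matrix glycoproteins 26 were higher, against 51.2% of all genes, with a median of 0.18. Of these, 11 were higher and 0 lower at an unadjusted p under 0.05, against 6.54% and 6.29% of all genes. VWF, an endothelial adhesion protein, had 0 counts in each NC-shRNA library and 128, 105 and 122 in PRMT5-shRNA cells. It was called in edgeR (adjusted p = 0.034, from 4.5e-11 to 0.37 over the alternatives), but it passed the filter only through the group where it is high, so this call is a description of VWF alone. VWF is also among the 26 and the 11, and for the same reason it supports nothing in those counts. NID1, which links laminin to type IV collagen, had 206, 176 and 164 counts against 305, 433 and 328, a log2 fold change of 1.08 (SE 0.144, adjusted p = 0.091 in edgeR). BGN, a small proteoglycan, had a log2 fold change of 1.497 (SE 0.275, adjusted p = 0.17 in edgeR). FN1, the fibronectin ligand of ITGA5, named after its values were seen, had a log2 fold change of 0.35 (SE 0.0738, adjusted p = 0.19 in edgeR).

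Genes listed as matrix receptors other than integrins had 8 of 19 higher, against 51.2% of all genes, and a median of -0.11. At an unadjusted p under 0.05, 2 were higher and 1 lower, against 6.54% and 6.29% of all genes. Given as single values, SV2A (0.64) and CD47 (0.24) were higher and SDC2 (-0.25) was lower. Whether each listed gene, SV2A among them, acts as a matrix receptor in these cells was not tested. Integrin adaptors had 17 of 35 higher, near the 51.2% of all genes, and a median of -0.013. Of the adaptors, 2 were higher and 5 lower at an unadjusted p under 0.05, against 6.54% and 6.29% of all genes. NEDD9 differed by 0.26, and the integrin beta tail binders ITGB1BP1, FERMT2 and TNS4 by -0.41, -0.26 and -0.16.

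Markers of several cell types were measured beside these values. The epithelial sum was lower in all PRMT5-shRNA libraries, as given above, while the mean summed FPKM of each member family was higher. Fibroblast markers summed to 247 to 314 CPM in NC-shRNA and 228 to 274 CPM in PRMT5-shRNA cells. Of 8 tested, 4 were higher, near the 51.2% of all genes, and PDGFRA was at 0 in all libraries. Endothelial markers summed to 60.1 to 66.2 CPM and 59.1 to 63.0 CPM, and 5 of 6 tested were higher, against 51.2% of all genes. At an unadjusted p under 0.05 in edgeR, 2 were higher and 1 lower, against 6.54% and 6.29% of all genes. PECAM1, a defining endothelial gene given as a single value, had 30, 5 and 8 counts in NC-shRNA and 104, 100 and 109 in PRMT5-shRNA cells. It is among the 5, but passed the filter only through the PRMT5-shRNA group, where it is high, so its sign supports nothing. The summed level of the endothelial list overlapped between the groups. Leukocyte markers summed to 4.12 to 5.09 CPM and 5.26 to 6.95 CPM. Of 5 tested, 3 were higher, against 51.2% of all genes, and CD3E, CD3D and MS4A1 were at 0 in all libraries. The part of such cells or programmes in the members' differences was not tested.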

How the data were processed

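For every gene and library the authors deposited estimated counts and FPKM. According to the submitters' processing notes, reads were trimmed with cutadapt 1.9, mapped with HISAT2 2.0.4 and quantified with StringTie 1.3.4d on GRCh38. The methods name a mouse assembly, but 58552 of the 58825 gene identifiers are in human GENCODE release 29. Estimated counts deposited by the authors were already whole numbers. They were filtered with filterByExpr by group, scaled by TMM and tested over all 20295 remaining genes with edgeR 4.0.16 (quasi-likelihood test, R 4.3.3, Benjamini-Hochberg adjustment). Groups came from the labels. Standard errors were derived from the F statistic.

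Alternatives were DESeq2 1.42.0, its size factors and upper-quartile scaling, other filters, limma 3.58.1 on log2 of the FPKM deposited by the authors (pseudocount 1 or 0.1, minimum mean 0.5), a replicate block, a length correction (lowess of each library's log2 CPM deviations on the log2 length of the longest GENCODE transcript, span 0.3) and each library left out. The main edgeR fit, DESeq2 size factors, the replicate block, the length correction, DESeq2 and limma with pseudocount 1 and the minimum were first run on simulated counts. The other settings were not.

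The members and gene lists were chosen with earlier results of these data known. Named members are those with p under 0.05 and a fold over 1.5, the 20 with the smallest p, those with the highest FPKM (5 collagens, 3 laminins, 4 alpha and 3 beta subunits), and the chains of laminin-111, laminin-332, laminin-511, type I and type IV collagen. From each list up to 3 genes a direction are named by the smallest p. A few genes that this rule names are not reported here. The spread between the 3 libraries of a group is the error used throughout, since 1 count does not stand for 1 fragment. No pair of libraries agreed within sampling noise.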

Additional observations from a re-analysis of the deposited data

How the results depend on the processing

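With 3 libraries a group, differences near 0.2 on the log2 scale were small beside the adjustment over all genes, and no edgeR or limma setting called a member at an adjusted p under 0.05. DESeq2 called 9, all higher. DESeq2 size factors and upper-quartile scaling left all counts of members as they were. At an unadjusted p under 0.05 with a fold over 1.5, the 4 higher members became 0 with limma on log2(FPKM + 1), 2 with log2(FPKM + 0.1) and 0 without a minimum, and 4 to 7 as each library was left out (7 without NC-shRNA replicate 3). The 1 lower member, COL9A2, became 2 without a filter on low counts, 0 with a mean CPM of at least 1, 0, 0 and 0 in the 3 limma settings, and 0 to 2 as each library was left out (0 without NC-shRNA replicate 1 or PRMT5-shRNA replicate 2, 2 without NC-shRNA replicate 3 or PRMT5-shRNA replicate 3).

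The members' median of 0.19 was 0.22, 0.24 and 0.096 in the limma settings (in that order), 0.12 with the length correction, 0.13 with the replicate block and length correction, and 0.15 to 0.23 as each library was left out. Collagens (0.15) gave 0.21, 0.23 and 0.070 with limma. Integrin beta subunits (0.12) gave 0.17 and 0.21 with limma and a minimum, 0.063 with the length correction and 0.048 to 0.21 as each library was left out. Laminins (0.24) gave 0.29 and 0.30 with limma and a minimum, 0.16 with the length correction, 0.16 with the block and length correction, and 0.25 to 0.29 as each library was left out, where the filter was applied anew. COL4A3 (0.022) turned to -0.054 with the length correction, -0.051 with the block and length correction, and ran from -0.16 to 0.13 as each library was left out. The causes were not tested.

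Same-numbered libraries correlated at 0.0012, -0.039 and 0.064 in their deviations from the group means (10487 genes). Over these genes the numbers showed no pairing, which does not settle it for each single gene. COL8A1 rose with the replicate number in both groups, at 35.3, 101 and 192 CPM in NC-shRNA and 61.9, 108 and 179 CPM in PRMT5-shRNA libraries. Its SE was 0.609 in the main fit and 0.189 with the replicate block. The cause was not tested. With the replicate block no gene was called, PRMT5 included (log2 fold change -1.62, adjusted p = 0.14, or -1.62 and 0.096 with the length correction).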
